A study of Mus musculus with 8 samples.

Results

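The IL-4 and STAT6 genes followed here are 10 genes of alternative macrophage activation: the receptor chains Il4ra and Il13ra1, the transcription factors Stat6 and Irf4, the secreted proteins Retnla, Chil3 and Ear2, the lectins Mgl2 and Clec10a, and the checkpoint ligand Pdcd1lg2. They were chosen by name, with earlier results of these data known. All 10 were found among the 47643 genes of the tables through the Ensembl identifiers of GENCODE M21. Macrophage RNA was sequenced from 2 groups of 4 libraries. In the first, peritoneal macrophages of C57 BL/6 mice shared a well with NIH 3T3 FV-hCasp8 cells and received 10 nM B/B Homodimerizer (MΦ+FV-Casp8+Dimerizer). In the second, the same kind of macrophages received the dimerizer without fibroblasts (MΦ+Dimerizer). NIH 3T3 FV-hCasp8 is a clonal derivative of a mouse fibroblast line that carries a human caspase-8 under control of the dimerizer, so that the drug starts apoptosis in it. The cells sat at a ratio of 1 to 1 on either side of a transwell with 5 μm pores, and RNA was taken 48 h after the drug. The macrophages are the peritoneal cells that stayed attached after washing, so other adherent cells can be among them, and no age is stated for the mice. Since living NIH 3T3 cells form no group here, the effects of fibroblasts and of their death cannot be told apart.

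IL-4 and IL-13 are cytokines of type 2 immunity. Their shared receptor chain, encoded by Il4ra, pairs with the common gamma chain (Il2rg) or with Il13ra1, and the JAK kinases bound to these chains phosphorylate STAT6, which enters the nucleus and switches on genes such as Arg1, Retnla and Chil3. In the mouse peritoneal cavity this programme is best known from helminth infection, and IL-4 also drives tissue macrophages to divide. Retnla, Chil3 and Arg1 are its usual markers in mice.

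The 300 bases around the start of a gene, 250 before and 50 after it, were taken from RefSeq (GRCm38.p6) for the 9 genes of the 10 that had an entry. STAT6 prefers TTC and GAA separated by 4 bases (TTCNNNNGAA), while other STAT proteins favour a spacing of 3 (TTCNNNGAA). Both motifs read the same on either strand, and they do not overlap each other in these windows. The windows of 4 genes are shown, that of Il4ra because its transcript rose and those of Retnla, Pdcd1lg2 and Chil3 because they hold a motif, which is set in capitals.
Il4ra: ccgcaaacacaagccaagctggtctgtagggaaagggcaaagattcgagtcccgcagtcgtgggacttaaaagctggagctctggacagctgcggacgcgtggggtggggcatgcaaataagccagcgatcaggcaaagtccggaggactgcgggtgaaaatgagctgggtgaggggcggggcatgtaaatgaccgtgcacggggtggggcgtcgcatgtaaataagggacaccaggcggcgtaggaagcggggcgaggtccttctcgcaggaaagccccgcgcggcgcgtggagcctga
Retnla: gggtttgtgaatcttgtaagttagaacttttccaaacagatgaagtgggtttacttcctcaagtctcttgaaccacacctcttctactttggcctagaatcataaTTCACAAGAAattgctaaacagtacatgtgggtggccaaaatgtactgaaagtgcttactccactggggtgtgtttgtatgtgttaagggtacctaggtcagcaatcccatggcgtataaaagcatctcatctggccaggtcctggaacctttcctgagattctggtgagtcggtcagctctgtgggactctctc
Pdcd1lg2: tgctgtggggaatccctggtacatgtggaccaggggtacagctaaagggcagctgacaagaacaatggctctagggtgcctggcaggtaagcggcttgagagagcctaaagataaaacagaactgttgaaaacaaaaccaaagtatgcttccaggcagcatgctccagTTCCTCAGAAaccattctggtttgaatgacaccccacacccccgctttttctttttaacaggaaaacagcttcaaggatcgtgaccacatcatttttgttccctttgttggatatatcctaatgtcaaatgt
Chil3: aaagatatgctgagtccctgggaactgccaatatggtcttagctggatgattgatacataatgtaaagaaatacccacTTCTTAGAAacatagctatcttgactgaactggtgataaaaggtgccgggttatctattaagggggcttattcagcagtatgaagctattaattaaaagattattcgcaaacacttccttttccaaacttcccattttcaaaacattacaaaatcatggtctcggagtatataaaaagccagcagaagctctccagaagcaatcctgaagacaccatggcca
The Il4ra window (chr7:125552021-125552320, plus strand) held neither motif. The Retnla window (chr16:48842359-48842658, plus strand) held TTCACAAGAA, which begins 145 bases before the start, and the Pdcd1lg2 window (chr19:29410669-29410968, plus strand) held TTCCTCAGAA 82 bases before it. In Chil3 (chr3:106167515-106167814, minus strand) the shorter form TTCTTAGAA lay 172 bases before the start. The windows of Il13ra1, Stat6, Irf4, Ear2 and Mgl2 held neither form. Of 32851 promoter windows in the same table, 6.95% held TTCNNNNGAA and 8.3% held TTCNNNGAA. Starts here are those of RefSeq. In Il4ra, Retnla, Mgl2 and Irf4 they lie downstream of the GENCODE gene starts given with the values, and in Il13ra1 slightly upstream. For Retnla the bases after the RefSeq start were not found in the reference transcripts of the gene. A match is a string of letters and was not tested as a binding site.

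Values are the authors' normalized counts, that is reads per gene divided by a size factor of the library, from QuantSeq, a method that reads the 3′ end of each mRNA. Levels are compared between groups only and not between genes. Recovered reads per library ranged from 6954153 to 11506556 in MΦ+FV-Casp8+Dimerizer macrophages and from 5904441 to 8932884 in MΦ+Dimerizer macrophages. Differences were tested with limma on log2(normalized count + 1) for 12029 genes, those averaging 10 or more, with p values adjusted by the Benjamini-Hochberg method and a threshold of 0.05. Of the 10 genes, 7 entered this test and 3 (Chil3, Ear2 and Pdcd1lg2) lay below the mean. Of all tested genes, 28.7% were called, 15% as higher and 13.7% as lower in the co-culture. The labels number the cultures without saying that they came from separate animals, while the paper describes macrophages of individual animals, and the p values measure the spread between these libraries only.

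Macrophage transcripts were abundant in every library, and transcripts of other cells were present as well. Summed over 8 macrophage markers, the level was 228430.7 to 256125.6 normalized counts in the co-culture and 203038.2 to 210472.0 with dimerizer alone, with 3 markers higher, 1 lower and 4 not passed. Most of each sum was Lyz2, which averaged 198255.8 in the co-culture and 163684.1 with dimerizer alone. Lyz2 did not pass (adjusted p = 0.188 from limma). Mean levels of Csf1r, Cd68 and Mertk were lower in the co-culture, and those of Adgre1, Itgam, Cd14 and Fcgr1 were higher. The shares called over all tested genes were 15% higher and 13.7% lower. For the other lists of markers the counts of tested genes were as follows. Large peritoneal macrophage markers had 2 higher and 1 lower of 6. Fibroblast markers had 7 lower of 8 and mesothelial markers 3 lower of 3. Dendritic cell markers had 1 higher and 3 lower of 6, eosinophil markers 1 lower of 3, and mast cell and basophil markers 2 lower of 9. B cell markers had 2 higher and 1 lower of 7, T and NK cell markers 1 lower of 2, and neutrophil markers 2 lower of 3. In bulk RNA, fewer cells of a type and less RNA per cell cannot be told apart.

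Il4ra and Clec10a were higher in the co-culture, and none of the 10 genes was called lower in the unpaired test. A fit with a replicate block called 2 of them lower, as given in the closing section with its limits. Of the 7 tested genes, 2 were higher and 5 did not pass. The 5 were Il13ra1, Stat6, Irf4, Retnla and Mgl2. The median log2 fold change of the 7 was 0.04, against 0.01 over all tested genes. No tested gene of the 7 was lower at an unadjusted p under 0.05 (0 from limma), and edgeR and DESeq2 on the recovered reads also called 2 higher and 0 lower. Only Il4ra had groups that did not overlap, where 29.4% of all tested genes have such groups, 15.3% with the co-culture above. A call for 2 of 7 genes is close to the share called over all genes.

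**Figure D1:**
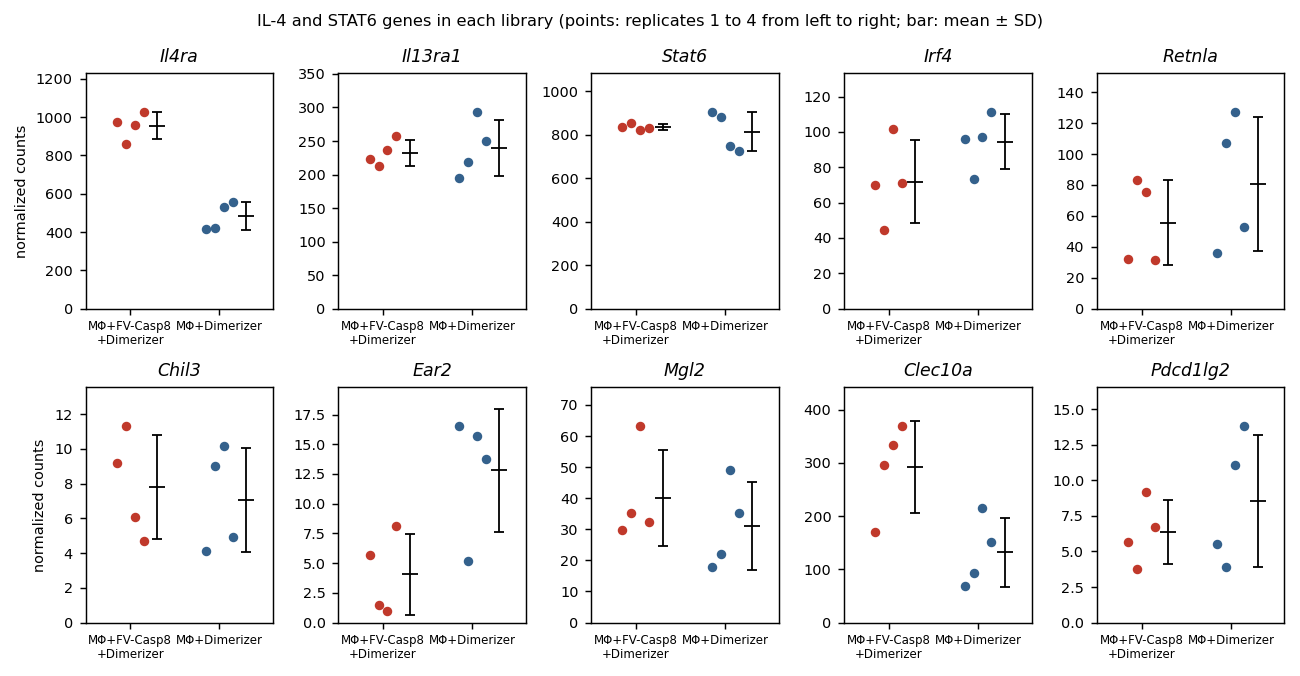
Normalized counts of the 10 genes in each library, with 4 MΦ+FV-Casp8+Dimerizer libraries on the left of each panel and 4 MΦ+Dimerizer libraries on the right, and bars for the mean ± SD (n = 4). Each panel has its own vertical axis from 0. The 4 co-culture libraries of Il4ra, at 857.6 to 1024.9, lie above all 4 with dimerizer alone, at 417.7 to 557.2, and the groups of the other 9 genes overlap.

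Il4ra, the receptor chain that both cytokines share, was about doubled. Its values were 976.2, 857.6, 959.3 and 1024.9 normalized counts in MΦ+FV-Casp8+Dimerizer libraries 1 to 4, against 417.7, 420.5, 533.3 and 557.2 in MΦ+Dimerizer libraries 1 to 4. The lowest co-culture library thus stood well above the highest library with dimerizer alone, and the libraries of each group lay close together. The mean was 954.5 ± 70.3 in the co-culture and 482.2 ± 73.5 with dimerizer alone (SD, n = 4 each). The log2 fold change was 0.99 (standard error 0.10, 95% interval 0.77 to 1.22, adjusted p = 1.57e-05 from limma), and over the alternatives it ranged from 0.93 to 1.07. Il4ra lies on chromosome 7 of GRCm38 from 125552120 to 125579474 (plus strand).
Il13ra1 (chrX:36112110-36171259), which binds IL-13 and completes the second form of the receptor, did not move with it. Its values were 222.8, 212.5, 237.0 and 257.6 normalized counts in the co-culture and 195.1, 219.3, 292.6 and 250.6 with dimerizer alone. All 4 co-culture values lay within the range of the other group. Its log2 fold change was -0.03 with a 95% interval of -0.30 to 0.24 (adjusted p = 0.889 from limma), an interval that leaves out a change of the size seen for Il4ra.
Il2rg, the common gamma chain of the first form of the receptor, fell. It had 493.9, 480.6, 564.6 and 472.0 normalized counts in the co-culture, against 678.8, 539.1, 766.7 and 770.5 with dimerizer alone. In each group 1 library reached into the other, 564.6 in the co-culture and 539.1 with dimerizer alone. The log2 fold change was -0.44 (standard error 0.11, adjusted p = 0.00923 from limma).
The ratio of the receptor chains within each library describes the same values. The log2 ratio of Il4ra to Il13ra1 was 1.99 to 2.13 in the co-culture and 0.86 to 1.15 with dimerizer alone, a difference of 1.02. For Il4ra to Il2rg it was 0.76 to 1.12 in the co-culture and -0.70 to -0.36 with dimerizer alone, a difference of 1.44. The ratios were chosen after the values of single genes had been seen, so they restate those values and carry no test.

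**Figure D2:**
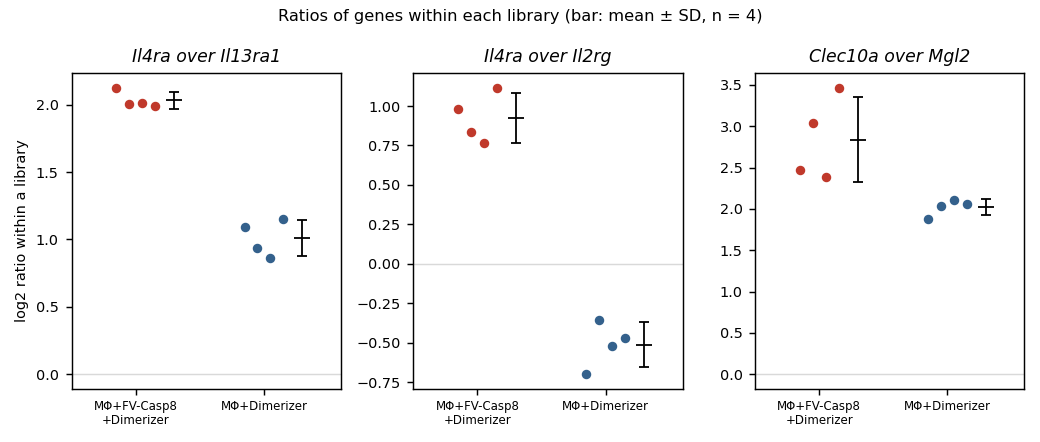
Log2 ratio of 2 genes within each library, with MΦ+FV-Casp8+Dimerizer libraries on the left and MΦ+Dimerizer libraries on the right of each panel, bars for the mean ± SD (n = 4) and separate vertical axes. The groups do not overlap in any panel, with differences of 1.02 for Il4ra over Il13ra1, 1.44 for Il4ra over Il2rg and 0.82 for Clec10a over Mgl2.

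Messages of the ligands themselves were at the limit of detection. Il4 had 1 read over the 4 co-culture libraries and 4 reads over the 4 libraries with dimerizer alone. Il13 had 0 reads in all 8 libraries. A count of 0 allows up to 3 reads, which corresponds to 2.02 to 3.45 normalized counts in a co-culture library and 2.78 to 4.12 in a library with dimerizer alone. These limits cover counting error only. The decoy receptor gene Il13ra2 was likewise at 0 in all 8 libraries.

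Stat6 (chr10:127642986-127660957), the transcription factor that the receptor activates, was steady at the level of its mRNA. It had 837.3, 853.8, 821.9 and 830.7 normalized counts in the co-culture and 902.8, 880.9, 750.0 and 725.3 with dimerizer alone. The co-culture libraries spanned a narrow range inside the wider range of the other group. The log2 fold change was 0.04 with a 95% interval of -0.13 to 0.22 (adjusted p = 0.741 from limma). Activation of STAT6 is a phosphorylation, which RNA does not measure.
Irf4 (chr13:30749226-30766976), a factor that STAT6 signalling induces and that macrophages need for much of the IL-4 response, had 70.1, 44.3, 101.7 and 70.8 normalized counts in the co-culture, against 96.2, 73.5, 97.2 and 111.0 with dimerizer alone. In the co-culture 3 libraries lay below the whole other group and replicate 3 lay within it. The log2 fold change of -0.44 did not pass (standard error 0.22, 95% interval -0.91 to 0.03, adjusted p = 0.155 from limma). Without replicate 3 of the co-culture it was -0.62 and passed (adjusted p = 0.0409 from limma). Without replicate 2 of the co-culture, the lowest library, it shrank to -0.23 (adjusted p = 0.406 from limma). Of the 8 fits that left out 1 library, 7 did not pass. Irf4 is also expressed by B cells and dendritic cells. The 8 B cell markers summed to 6155.5 normalized counts in that replicate 3, the highest of the 8 libraries, to 2534.5 to 4909.5 in the other 3 co-culture libraries and to 1102.8 to 4777.0 with dimerizer alone. The part of these cells in the Irf4 values was not tested.

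The secreted markers of alternative activation, Retnla, Chil3 and Ear2, were not called higher. Retnla (chr16:48842551-48844461), which encodes the resistin-like protein RELMα, had 32.2, 83.4, 75.3 and 31.7 normalized counts in the co-culture, against 35.7, 107.1, 126.9 and 53.1 with dimerizer alone. Replicates 2 and 3 were the high ones in both groups, and the highest library exceeded the lowest 2.63-fold in the co-culture and 3.55-fold with dimerizer alone. On the log2 scale the difference in the unpaired test was -0.49 (standard error 0.40, 95% interval -1.36 to 0.38, adjusted p = 0.397 from limma). Its interval leaves out a rise of 2-fold on this scale.
Chil3 (chr3:106147554-106167564), which encodes the chitinase-like lectin Ym1, was barely detected. Its 8 libraries held 3 to 15 reads each, which gave 9.2, 11.3, 6.1 and 4.7 normalized counts in the co-culture and 4.1, 9.0, 10.2 and 4.9 with dimerizer alone. The groups overlapped over nearly their whole range. The difference of mean log2 values was 0.14 (exact two-sided permutation p = 0.629, 70 relabellings). Neutrophils also express Chil3. The neutrophil markers summed to 1021.3 to 1741.1 normalized counts in the co-culture and to 2051.9 to 5232.8 with dimerizer alone, while their defining gene Ly6g had no read in any library. This difference was carried mostly by Mmp8, at a mean of 812.5 in the co-culture and 2744.8 with dimerizer alone. Csf3r also fell, while S100a8 averaged 331.8 in the co-culture and 275.5 with dimerizer alone and did not pass. S100a9 and Camp, below the minimum for testing, had higher means in the co-culture. The part of neutrophils in the Chil3 values was not tested. Chil4, the close paralog that encodes Ym2, had 0 reads in all libraries. The family member Chil1 had 1.1, 3.0, 4.1 and 0.0 normalized counts in the co-culture, against 13.7, 27.1, 17.6 and 15.7 with dimerizer alone, without overlap. Its mean over all libraries of 10.3 reached the minimum for testing only through the libraries with dimerizer alone.
Ear2 (chr14:44102654-44103534), a ribonuclease of the eosinophil-associated family that macrophages also make, had 5.7, 1.5, 1.0 and 8.1 normalized counts in the co-culture, against 16.5, 5.2, 15.7 and 13.8 with dimerizer alone. With dimerizer alone, replicate 2 lay within the co-culture range and the other 3 lay above it. The difference of mean log2 values was -1.61 (p = 0.0857 by an exact two-sided permutation test), and Ear2 rested on 20 reads in the co-culture and 47 with dimerizer alone. Without a filter on low genes its adjusted p from limma was 0.0585. The eosinophil granule genes Epx and Prg2 had no read in any library, while Siglecf, which eosinophils and some macrophages carry, had 1.3 to 16.1 normalized counts in the co-culture and 39.9 to 46.3 with dimerizer alone. The other eosinophil markers did not pass, Il5ra with 28.7 to 77.3 in the co-culture and 16.8 to 60.2 with dimerizer alone, and Ccr3 with 16.9 to 44.8 in the co-culture and 19.7 to 52.9 with dimerizer alone. Their part in the Ear2 values was not tested. Ear genes are near copies of each other, and the counting of reads shared among them is not described, so the values of Ear2 are uncertain. Ear1 and Ear6 had 1 read each over all libraries and Ear10 had none, while the related Rnase2b had 10 reads in the co-culture and 12 with dimerizer alone.

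The macrophage galactose lectins are encoded next to each other on chromosome 11 of GRCm38, Mgl2 from 70130329 to 70137550 and Clec10a from 70156197 to 70170834, both on the plus strand. Clec10a, or MGL1, rose in the co-culture. It had 170.0, 296.6, 334.7 and 368.8 normalized counts in MΦ+FV-Casp8+Dimerizer libraries, against 68.7, 92.9, 214.8 and 151.3 in MΦ+Dimerizer libraries. The groups overlapped through 2 libraries, replicate 1 of the co-culture at 170.0 and replicate 3 with dimerizer alone at 214.8. The mean was 292.5 ± 86.9 in the co-culture and 131.9 ± 65.2 with dimerizer alone (SD, n = 4 each). On the log2 scale it was higher by 1.22 (standard error 0.31, 95% interval 0.55 to 1.89, adjusted p = 0.00972 from limma). The call was lost when the variance trend was fitted robustly (adjusted p = 0.0732 from limma), and it held without any single library, at 0.95 to 1.5.
Mgl2, or MGL2, which marks IL-4-stimulated macrophages and a set of dendritic cells, had 29.9, 35.3, 63.1 and 32.4 normalized counts in the co-culture, against 17.9, 21.9, 49.1 and 35.4 with dimerizer alone. Replicate 3 was the highest of each group. The log2 fold change of 0.40 did not pass (standard error 0.32, 95% interval -0.29 to 1.09, adjusted p = 0.384 from limma).
Within a library the log2 ratio of Clec10a to Mgl2 was 2.39 to 3.47 in the co-culture and 1.89 to 2.11 with dimerizer alone, a difference of 0.82, also a description with no test. The genes are related in sequence, and the counting of reads that fit both is not described in the sources used here, so a shift of reads from one to the other cannot be told apart from a change. Dendritic cells also express both. Of the 8 dendritic cell markers, Itgax had 395.8 to 776.4 normalized counts in the co-culture and 1654.9 to 2862.1 with dimerizer alone. Clec9a and Zbtb46 also fell, while Ccr7 rose, with 21.8 to 40.5 in the co-culture and 3.9 to 25.6 with dimerizer alone. Cd209a averaged 571.4 in the co-culture and 392.2 with dimerizer alone and did not pass, and the defining Flt3 stood at 1.0 to 3.4 in the co-culture and 0.0 to 2.0 with dimerizer alone. The list summed to 859.1 to 1752.6 in the co-culture and to 2199.3 to 3269.7 with dimerizer alone, a difference carried mostly by Itgax. The part of these cells in the lectin values was not tested.

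Pdcd1lg2 (chr19:29410919-29471161), which encodes PD-L2, an inhibitory ligand of PD-1 that IL-4 induces, was near the detection limit. It had 5.7, 3.8, 9.2 and 6.7 normalized counts in the co-culture and 5.5, 3.9, 11.1 and 13.8 with dimerizer alone, from 3 to 14 reads per library. The difference of mean log2 values was -0.29 (p = 0.514 by an exact two-sided permutation test). Its neighbour on chromosome 19, Cd274, which encodes PD-L1 and is known as an interferon-induced gene, fell. Cd274 had 304.4, 150.9, 205.5 and 164.5 normalized counts in the co-culture, against 470.0, 370.2, 675.9 and 636.8 with dimerizer alone (log2 fold change -1.39, standard error 0.22, adjusted p = 0.000347 from limma). Its groups did not overlap.

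Among the other components of the IL-4 and IL-13 pathway, all genes that passed the test were lower. Of 18 genes in this list, 14 were tested, 6 fell, 8 did not pass and none rose, with a median log2 fold change of -0.10 against 0.01 over all tested genes. The 6 are 42.9% of the 14, where 13.7% of all tested genes were called lower. Since the list was made with earlier results of these data known, the shares are not an independent comparison. Some of the 8 were measured with wide intervals, such as Jak3 at 0.37 (95% interval -0.19 to 0.93) and Cish at 0.05 (-0.88 to 0.99), and Jak3 was called higher without replicate 4 of the dimerizer group (0.64, adjusted p = 0.0461 from limma). No gene of it was higher at an unadjusted p under 0.05 (0 from limma), and edgeR and DESeq2 called 0 higher and 6 lower. Besides Il2rg, the calls of smallest adjusted p were those of the kinase Jak2 (304.5 ± 15.5 in the co-culture and 417.5 ± 40.7 with dimerizer alone, SD, n = 4 each, log2 fold change -0.45), the adaptor Irs2 (565.8 ± 87.2 in the co-culture and 736.4 ± 48.8 with dimerizer alone, -0.39) and the feedback inhibitor Socs2 (80.2 ± 28.6 in the co-culture and 158.1 ± 57.6 with dimerizer alone, -0.96). The phosphatases Ptpn1 and Ptpn6 fell by 0.25 and 0.36 on the log2 scale. The kinase Jak1, which binds the receptor chain of Il4ra, had a log2 fold change of -0.08 (95% interval -0.23 to 0.07), and Ptpn11 one of -0.02 (-0.20 to 0.17). The call of Socs2 was lost without replicate 3 or 4 of the dimerizer group or replicate 2 or 4 of the co-culture, and the calls of Ptpn1 and Ptpn6 were each lost on leaving out any of 5 of the 8 libraries. The count of 6 fell to 3 without replicate 3 or 4 of the dimerizer group, or replicate 2 or 4 of the co-culture.

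Other genes that IL-4 induces in mouse macrophages moved in both directions. Of 28 listed, 24 were tested, 9 rose, 8 fell and 7 did not pass. The share called was 70.8%, where 28.7% of all tested genes were called, 15% as higher and 13.7% as lower. This list too was made with earlier results of these data known, so the shares are not an independent comparison. The median log2 fold change was 0.23, against 0.01 over all tested genes. Arg1, the arginase that competes with nitric oxide synthase for arginine, had 15593.2, 9313.4, 5943.9 and 12637.6 normalized counts in the co-culture, against 3287.0, 2761.5, 3291.6 and 5008.0 with dimerizer alone (log2 fold change 1.55, standard error 0.25, adjusted p = 0.000416 from limma). Its groups did not overlap, although its lowest co-culture library lay near its highest library with dimerizer alone. Mrc1, the mannose receptor CD206, had 5222.2, 5850.7, 7585.7 and 5932.4 in the co-culture, against 1299.9, 1147.9, 2170.4 and 1303.1 with dimerizer alone (log2 fold change 2.09, standard error 0.17, adjusted p = 1.94e-06 from limma). Its groups were well apart. F13a1, a coagulation factor chain, and the lipoxygenase Alox15 had log2 fold changes of 3.33 and 2.97.
Transcription factors of the list were called in both directions. Klf4, Tfec and Myc rose by 0.70, 0.73 and 0.65 on the log2 scale, and Batf3, Egr2 and the nuclear receptor gene Pparg fell. The groups of Myc overlapped, and its call was lost on leaving out any of 5 of the 8 libraries. Egr2, an early factor of the IL-4 response, had 402.0, 259.8, 226.8 and 210.4 normalized counts in the co-culture, against 1139.2, 1184.1, 948.1 and 737.0 with dimerizer alone (log2 fold change -1.89, standard error 0.19, adjusted p = 1.03e-05 from limma). The groups were separate. Pparg had a log2 fold change of -2.10, Batf3 one of -1.40, the elastase gene Mmp12 one of -1.42 and the arginine transporter gene Slc7a2 one of -0.60. Cd200r1, an inhibitory receptor, and Tgm2, a transglutaminase, had 0.02 (95% interval -0.15 to 0.19) and 0.33 (-0.19 to 0.85) and did not pass. Tgm2 passed without replicate 4 of the dimerizer group, at 0.58 (adjusted p = 0.0435 from limma).

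**Figure D3:**
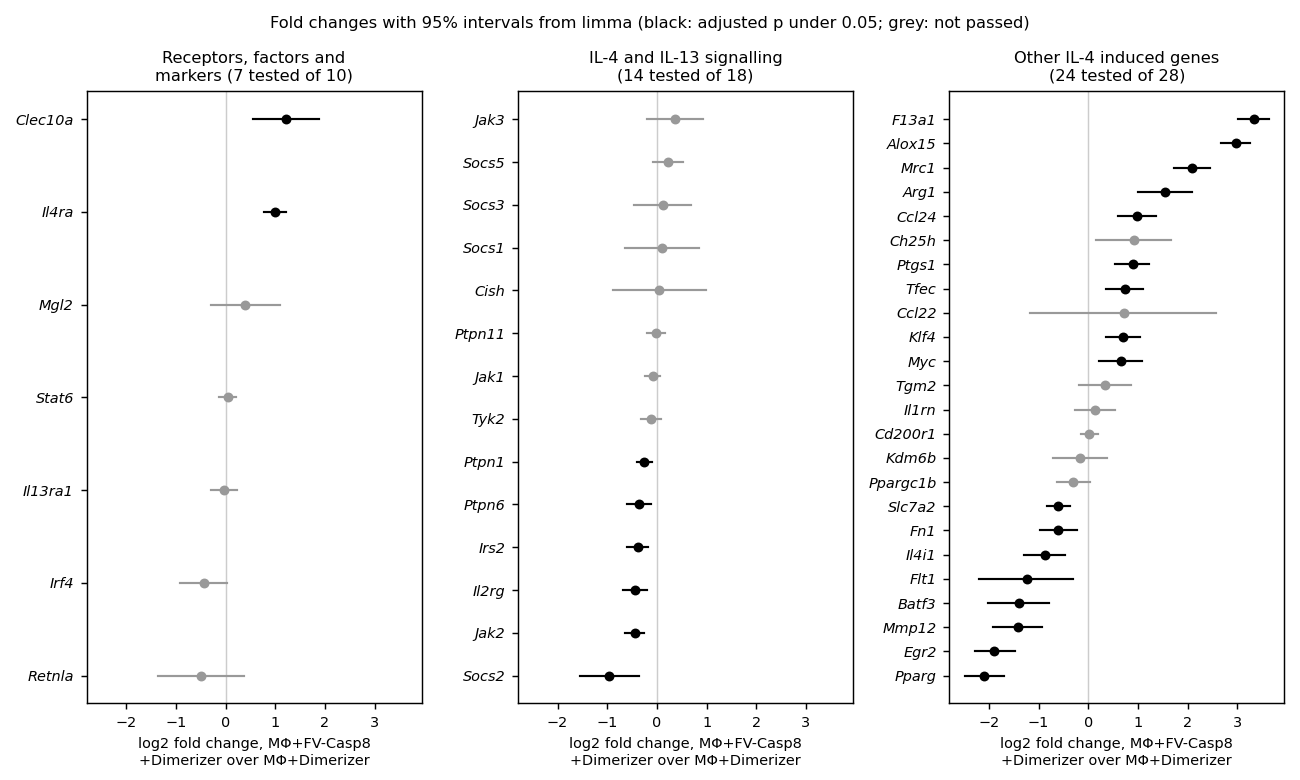
Log2 fold change of each tested gene, MΦ+FV-Casp8+Dimerizer over MΦ+Dimerizer, with 95% intervals from limma, for 7 of the 10 genes, 14 genes of IL-4 and IL-13 signalling and 24 other IL-4 induced genes (black, adjusted p under 0.05; grey, not passed). On the left Clec10a at 1.22 and Il4ra at 0.99 passed. In the middle the 6 genes that passed are lower, and on the right the values run from 3.33 for F13a1 to -2.10 for Pparg.

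No tested relative or neighbour of the 10 genes was called higher. Of 25 listed, 24 were found and 9 were tested, of which 5 fell and 4 did not pass. Of all tested genes 13.7% were called lower, and Chil1, which reached the minimum for testing only through the libraries with dimerizer alone, is among the 5. The list of relatives and neighbours was likewise made with earlier results of these data known. The count of higher genes was 0 (0 from limma also at an unadjusted p under 0.05, 0 from edgeR and 0 from DESeq2). The interferon regulatory factors Irf8 and Irf5 fell by 0.45 and 0.44 on the log2 scale (adjusted p = 0.00132 and 0.00254 from limma), and their groups did not overlap, as for 14.1% of all tested genes with the co-culture below. Their relative Irf4 had the like value of -0.44 with a standard error of 0.22. Of the STAT genes, Stat5b fell by 0.24, a call lost on leaving out any of 7 of the 8 libraries, and Stat3 had -0.13 (95% interval -0.39 to 0.12). Retnlg, next of kin to Retnla, had 10.3, 0.0, 0.0 and 0.7 normalized counts in the co-culture and 1.4, 0.0, 0.0 and 1.0 with dimerizer alone, so that its co-culture reads came almost wholly from replicate 1. Retnlb had no read.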

How the data were processed

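RNA of 8 cultures was sequenced with the QuantSeq 3′ kit with unique molecular identifiers. The paper's methods name GRCm38 and 2 Lexogen pipelines, QuantSeq FWD UMI 2.3.1 for mapping and QuantSeq DE 1.3.1 for the comparison. STAR, HTSeq and DESeq2 stand in the submitters' processing notes, with no annotation release given in the sources used here. The tables hold normalized counts deposited by the authors, a signal whose every value is a whole read number divided by a library factor. Whole reads were recovered for 100% of values, to within 0.001 of a read. The library factors were those of the median-of-ratios method. Symbols came from GENCODE M21 (99.1% of IDs matched).

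limma 3.58.1 (R 4.3.3) was fitted on log2(normalized count + 1), with a variance trend, unpaired. Genes below a mean of 10 were tested by an exact permutation test. In simulated libraries of 8 cultures, 11738 of 11937 genes were left unchanged. There limma recovered 55% of 1.5-fold, 79.5% of 2-fold and 100% of 4-fold changes. A far smaller share of genes changed there than was called in the data, so the adjusted threshold differed. These rates need not hold for the data. Named genes were the 10, Il4, Il13 and Il2rg, up to 4 calls of smallest adjusted p per list and direction, the 2 most abundant not passed, fixed paralogs and the most abundant markers. Other list members were named after their values were seen. Gene lists and members were chosen with earlier results of these data known. Alternatives were pseudocounts of 0.5 and 5, other filters, scalings and weights, edgeR 4.0.16, DESeq2 1.42.0, a replicate block, a threshold of 0.01 and leaving out each library. Python 3.11.15 was used for tables and figures.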

Additional observations from a re-analysis of the deposited data

Results flagged for a closer look

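Mgl2 in replicate 3 of the MΦ+FV-Casp8+Dimerizer group stood apart, with 63.1 normalized counts against 29.9 to 35.3 in the other 3 libraries. The gap to the nearest library was 0.836 of the whole range. Of 20 groups of 4 values (10 genes in 2 conditions), this was the only one with such a gap, and chance gives about 1 in 20. Without that library the log2 fold change of Mgl2 was 0.17 (adjusted p = 0.75 from limma).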

How the results depend on the processing

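Il4ra kept its call under all alternatives, at 0.93 to 1.07. Clec10a kept it under all but a robust variance trend, which left 1 of the 10 genes higher in place of 2, and the cause was not tested. Leaving out 1 library each gave 2 higher and 0 to 1 lower genes of the 10, with Irf4 as the lower one. No source ties the shared replicate numbers to an animal or a day, though the library names in the tables carry a number that each pair shares. By deviation from the group mean, each of the 8 libraries was most like the one of its own number, but the correlations of pairs ranged from 0.088 to 0.341, and 1 of the 4 was under 0.1, so the numbers were not used to pair libraries. With the replicate block, 2 of the 10 genes were lower, Irf4 (-0.44, adjusted p = 0.0432 from limma) and Retnla (-0.49, adjusted p = 0.0319 from limma), which was lower in the co-culture in 4 of 4 pairs of one number. At an adjusted p under 0.01, 2 signalling genes were lower in place of 6, and of all genes 1104 were higher and 968 lower in place of 1806 and 1646. Leaving out 1 library each gave 0 to 1 higher (Jak3, without replicate 4 of the dimerizer group) and 3 to 6 lower signalling genes. It gave 3 to 5 lower relatives and neighbours, with 3 without replicate 1, 3 or 4 of the dimerizer group. Without any library of that group, 8 relatives and neighbours were tested in place of 9, since Chil1 then fell below the minimum for testing. The counts for other IL-4 induced genes stayed at 8 to 10 higher and 6 to 9 lower. Chil3, Ear2 and Pdcd1lg2 rested on 3 to 15, 1 to 17 and 3 to 14 reads per library, which limits what their tests could detect.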
